A study of Arabidopsis thaliana with 4 samples.

Results

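The response of wild-type Arabidopsis thaliana roots to aluminium (Al) was read from 1 pair of RNA-seq libraries. Roots of Col-0 seedlings kept with 10 µM AlCl3 were set against roots of Col-0 seedlings kept with 0 µM AlCl3. These are 2 of the 4 libraries of the series, and they were chosen by their labels, not by a measured value. In all groups the seedlings were 6 days old, numbered about 500, and spent 24 h in 2% MGRL nutrient solution at pH 5.0, so the acid medium belongs to the untreated roots too. The other 2 libraries, with 0 or 10 µM AlCl3, came from plants whose label gives a double mutant of arf10 and arf16 in the Col-0 background (written arf10/16). Whole roots of many seedlings went into a library, so no value belongs to 1 plant or 1 cell type.

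Soluble Al is set free from minerals in acid soil and halts root elongation within hours, with the tip as the most sensitive zone. It binds the negative charges of cell wall pectin and of membranes, and it disturbs the uptake of nutrient cations. Arabidopsis roots keep Al out mainly by releasing malate through the channel ALMT1, which is switched on by the zinc finger factor STOP1, and they move Al that has entered into the vacuole with half-size ABC transporters.

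Libraries held 2232186 reads (wild type without Al), 2280894 (wild type with Al), 2188782 (arf10/16 without Al) and 2080348 (arf10/16 with Al). Transcript models were summed per locus, and 14739 loci passed a filter on low counts and are called measured. Levels are CPM, read counts scaled to a common library size of 1000000, on library sizes scaled by TMM, edgeR's trimmed-mean method, and a log2 ratio is Al over no Al after adding a prior count of 2. As each group is a single library, the wild-type difference has no replicate check and no p-value. A locus is called higher or lower if its ratio is at least 2-fold and the exact 95% Clopper-Pearson counting interval of the ratio (in square brackets below) excludes 1; that interval covers counting error only. "Rose" and "fell" are kept for loci that passed edgeR's quasi-likelihood test in an additive model of genotype label and Al over all 4 libraries. The threshold was a Benjamini-Hochberg adjusted p of 0.05, on 1 residual degree of freedom. The wild-type libraries enter both rules, so a locus that rose or fell is no independent check of its call by size.

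ARF10, an auxin response factor and a labelled target of the mutant line, had 110 reads without and 142 with Al in wild type, against 3820 and 2640 in the libraries labelled arf10/16. Its level goes against that label, so the line is named by its label throughout. ARF16, the other target, had 159 and 75 reads in wild type and 71 and 41 in the other pair.

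Markers of root tissues were present, and many were lower with Al. All 5 root hair markers were lower (summed level 569 CPM without and 66.8 CPM with Al), as were 3 of 3 measured root cap markers (39.0 and 9.22 CPM). The cortex marker AT1G62500 had 19 reads without Al and 0 with Al, and the non-hair epidermis marker MYB66 had 27 and 8. PLT2, a stem cell regulator of the root tip, was lower (41 to 6 reads), while PLT1 was not called (55 to 33). Xylem markers fell in 4 of 5 cases and 2 were lower by size, whereas the phloem markers SUC2 (105 to 192 reads) and SEOR1 (90 to 83) were called in neither direction. The endodermal regulators MYB36 (117 to 111 reads) and SCR (196 to 136) were not called. Photosynthesis genes of the shoot summed to 182 CPM without and 74.2 CPM with Al. In whole-root RNA, fewer cells of a type and less RNA per cell cannot be told apart, and the part of these markers in the results below was not tested.

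Of the 14739 measured loci, 2122 (14.4%) were higher and 1782 (12.1%) lower with Al in wild type, 26.5% in all. In the pair labelled arf10/16, 10.8% were higher and 9.41% lower. Of the loci higher in wild type, 1690 (79.6%) rose in the additive model, and 1324 (74.3%) of those lower fell. That model holds the same wild-type libraries that gave the calls, so this overlap is in part built in. Over all loci 15.5% rose and 13.1% fell (2278 and 1924 loci). These counts depend on the tool and the scaling: DESeq2's Wald test called 1053 and 696, and edgeR on total counts 2037 and 2275. The upward side reached further: 790 loci were at least 4-fold higher and 653 at least 4-fold lower, 100 and 45 at least 16-fold, and 16 and 2 at least 64-fold. At 0 reads without Al stood 105 of the higher loci, and 61 of the lower loci had 0 reads with Al. Among the 822 loci with 1000 or more reads over the pair, 21.4% were higher and 11.7% lower, whereas among the 4438 with fewer than 50 reads 13.2% were higher and 15.0% lower. Which direction holds more loci depends on the scaling, since total counts gave 1914 higher and 2059 lower.

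**Figure D1:**
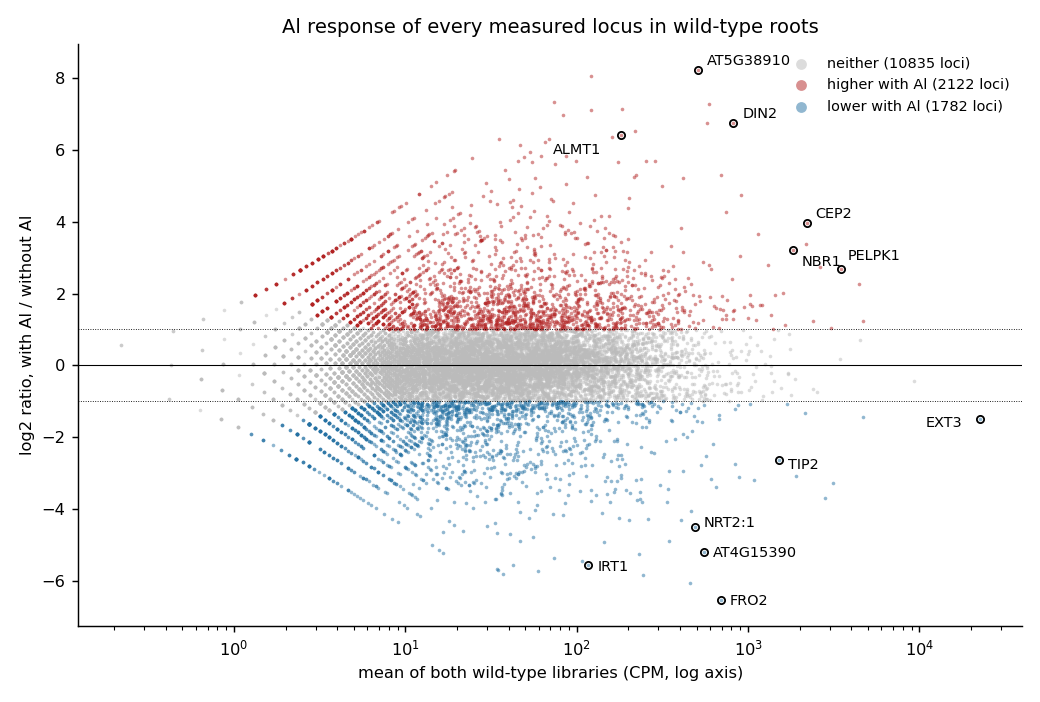
Each point is a measured locus, placed by its mean level in both wild-type libraries (CPM, log axis) and its log2 ratio with Al over without Al; red points were called higher (2122), blue points lower (1782), grey points neither, and the dotted lines mark 2-fold. Loci above 64-fold, such as AT5G38910, DIN2 and ALMT1, outnumber those below it, where FRO2 stands lowest.

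The wall took the largest turnover of reads. EXT3, an extensin that cross-links into the wall scaffold, was the most read locus and went from 79035 to 26669 reads (2.83-fold lower [2.79 to 2.87]), the largest loss of CPM of any measured locus. Of the 10 largest losses, 8 were extensins or other proline-rich wall proteins. AT1G23720 went from 12465 to 928 reads (12.8-fold lower [12 to 13.7]), AT3G28550 from 13521 to 1344 (9.60-fold) and HRGP1 from 4667 to 486 (9.17-fold). The remaining 2 were TIP2, a water channel of the vacuole (6253 to 956 reads), and AT3G32980, a class III peroxidase (7311 to 2809). AT2G43150, an extensin-like gene, lost much CPM (25471 to 18103 reads) at a ratio too small to be called. Such proteins share repeated stretches, and the treatment of reads that match several of them is unknown here.

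The 3 largest gains were also hydroxyproline-rich glycoproteins of the wall: AT4G38080 (3591 to 16650 reads, 4.86-fold higher [4.68 to 5.04]), PELPK1 (2207 to 13666, 6.49-fold) and AT2G22510 (1641 to 10371, 6.62-fold). They were followed by CEP2, a papain-like protease with a retention signal for the endoplasmic reticulum that is known from dying cells (628 to 9398 reads, 15.7-fold [14.5 to 17.0]). DOX1, which oxidises fatty acids to oxylipins, went from 902 to 9037 reads and NBR1, a receptor that carries ubiquitin-tagged cargo into autophagosomes, from 836 to 7477. NHL3, a membrane protein of pathogen responses, went from 791 to 5212 reads and GSTF2, a glutathione S-transferase, from 395 to 4828. These loci rose in the additive model. COR47, a dehydrin, gained as many CPM as these (4765 to 9318 reads) but stood at 6618 and 6922 in the pair labelled arf10/16 and did not pass edgeR's quasi-likelihood test (adjusted p = 0.0615).

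**Figure D2:**
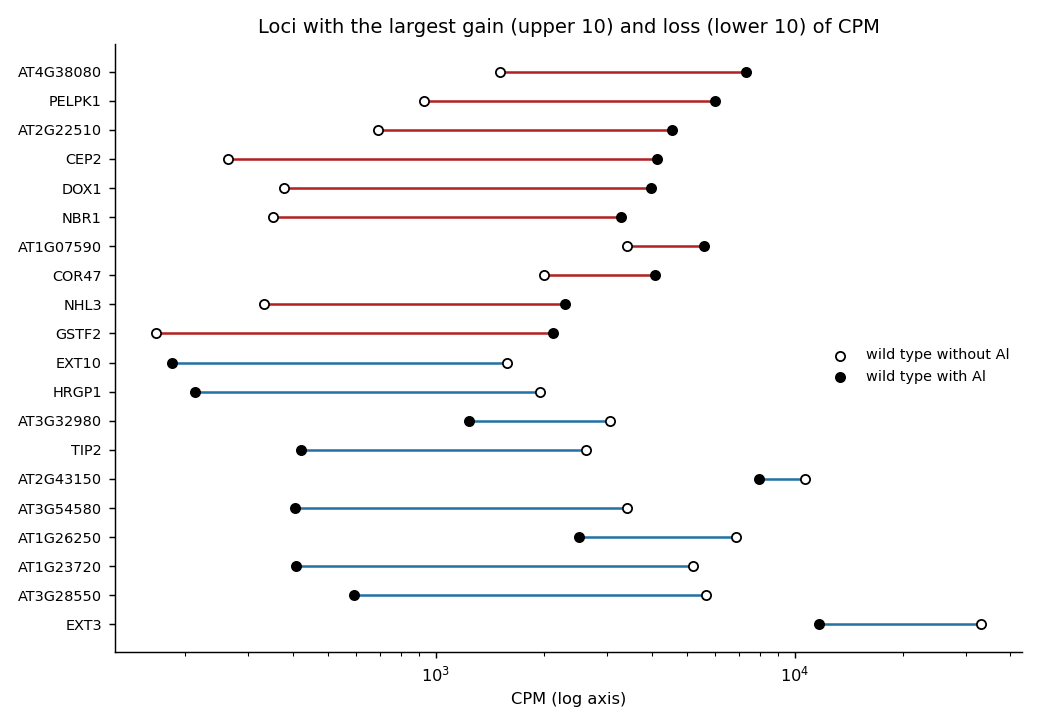
Levels (CPM, log axis) of the 10 loci with the largest gain and the 10 with the largest loss in wild type, open circles without Al and filled circles with Al, 1 library each. EXT3 starts at the highest level, and CEP2 and GSTF2 show the widest spans among the gains.

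The largest ratios belonged to other genes. AT5G38910, a cupin of the germin-like kind, went from 6 to 2311 reads (403-fold higher, lower bound of the interval 185), and AT5G39120, another cupin, from 1 to 378. AT5G52390, annotated as a PAR1 protein, had no read without Al and 553 with Al, at least 193-fold higher against a floor of 3 reads. AT3G22910, an ion-pumping ATPase, went from 16 to 2673 reads (175-fold), and AT1G21520, of unknown function, from 4 to 831. The ubiquitin ligase gene PUB54 went from 9 to 990 reads. On the lower side, the defensin-like gene AT5G33355 went from 1138 to 17 reads (63.9-fold lower [39.7 to 110]). AT5G46900, a lipid transfer protein, went from 280 to 3 reads, AT1G19900, related to glyoxal oxidase, from 177 to 1 and AT1G52050, a mannose-binding lectin, from 503 to 9. All of these rose or fell in the additive model, which holds the same wild-type libraries.

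Al exclusion genes were mostly higher. Of 7 measured members, 4 were higher and none lower, and 5 rose. ABCB27, a half-size ABC transporter of the vacuolar membrane, went from 152 to 302 reads (2.08-fold higher [1.71 to 2.55]) beside ALMT1 (8 to 819). AT5G22890, a zinc finger protein, had 110 and 191 reads and was not called by size, but rose. Malate and citrate metabolism was mixed, with 5 of 27 members (18.5%) higher and 4 (14.8%) lower, against 14.4% and 12.1% of all loci. The malic enzymes NADP-ME1 (12 to 233 reads, 20.3-fold) and NADP-ME2 (1363 to 4175, 3.21-fold), which break malate down to pyruvate, were higher, as was TDT, the malate carrier of the vacuole (86 to 506 reads, 6.16-fold). PPC3, a phosphoenolpyruvate carboxylase that feeds malate synthesis, was lower (2375 to 803 reads, 2.82-fold), as was mMDH1, a mitochondrial malate dehydrogenase (1255 to 419, 2.86-fold). The malic enzymes and TDT rose, and PPC3 and mMDH1 fell.

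Genes of self-digestion moved up as a group. Autophagy encloses cell contents in membranes for breakdown in the vacuole, with ATG8 proteins as membrane tags and ATG9 and ATG18 in membrane supply. Of 23 measured autophagy genes, 10 (43.5%) were higher and none lower, 22 had ratios above 0, and 12 rose; the median log2 ratio was 0.95 against 0.01 over all loci. Apart from NBR1 the members moved less: G18F, of the ATG18 group, went from 125 to 468 reads (3.92-fold), APG9 from 146 to 407 (2.92-fold) and APG8H, of the ATG8 group, from 37 to 105 (2.97-fold). ATG2 (274 to 333 reads), APG5 (45 to 61) and AT5G50230, a WD40 protein of the conjugation complex (106 to 109), were called in neither direction.

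The papain-like cysteine proteases summed to 4905 CPM without and 14131 CPM with Al. Of 22 measured members 9 were higher and 1 lower, and 10 rose and 2 fell. CEP1, the nearest relative of CEP2, went from 14 to 777 reads (58.1-fold higher [34.4 to 107]). The vacuolar proteases RD19 (3410 to 7691 reads, 2.36-fold) and RD21A (2434 to 5116, 2.20-fold) rose, while RD21B (1663 to 1025), a close relative, fell. AT3G43960 was the member that was lower by size (155 to 23 reads). In the overlapping list of senescence and developmental cell death, 14 of 19 (73.7%) were higher and 1 lower, with a median of 2.15. BFN1, a nuclease that degrades DNA and RNA in dying cells, went from 34 to 509 reads (15.7-fold), NAC6, a transcription factor of ageing leaves, from 27 to 362 (14.0-fold) and NAP, another such factor, from 52 to 286 (5.76-fold). GAMMA-VPE, which activates vacuolar hydrolases, went from 1147 to 3605 reads. SAG21 was the member that was lower (167 to 75 reads), and RNS3, a ribonuclease, was not called (109 to 119).

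Many genes for the breakdown of amino acids were higher. Of 14 measured genes for branched-chain amino acid and proline breakdown, 8 were higher and none lower, and 10 rose. AT1G21400, a subunit of the branched-chain keto acid dehydrogenase, went from 28 to 293 reads (11-fold [7.43 to 16.8]), its partner BCDH BETA1 from 53 to 321 (6.34-fold) and IVD, the next enzyme of leucine breakdown, from 162 to 481 (3.11-fold). AT5G38710, of the proline oxidase kind, went from 58 to 370 reads, whereas ERD5, the main proline dehydrogenase gene, stood at 1819 and 1994 and was not called. Of 9 genes for the GABA shunt and glutamate dehydrogenase, 5 were higher and none lower. GDH1, which releases ammonium from glutamate, went from 174 to 785 reads (4.73-fold) and GAD4, a glutamate decarboxylase, from 3 to 127 (44.3-fold [14.8 to 218]). The GABA shunt enzyme ALDH5F1 was not called (374 to 317). Of 13 sugar starvation markers 5 were higher and 1 lower: besides DIN2, a beta-glucosidase that is induced in darkness (34 to 3696 reads), DIN9 (26 to 142) and TPS11 (95 to 470) were higher, DIN10 was not called (30 to 30), and BGAL4 was lower (546 to 251). The members named here as higher rose in the additive model. In the GABA list 4 of 9 rose.

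Most proteasome genes had ratios above 0 and most ribosomal protein genes ratios below 0, few of them past 2-fold. The 26S proteasome degrades proteins tagged with ubiquitin. Of its 33 measured subunits, 32 had ratios above 0, with a median of 0.64, but only 5 (15.2%, near the 14.4% of all loci) passed 2-fold; 12 rose and none fell. The summed level was 3930 CPM without and 6383 CPM with Al. RPT2a, an ATPase of the base, went from 497 to 1192 reads (2.51-fold [2.26 to 2.80]), RPT1A from 553 to 1245 (2.36-fold) and PBC1, a subunit of the core, from 141 to 299 (2.22-fold). RPT2b, the near copy of RPT2a, was not called (177 to 188), nor was RPN1B (344 to 356), where its copy RPN1A went from 712 to 1315.

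Nuclear genes of ribosomal proteins summed to 34525 CPM without and 19754 CPM with Al. Of 251 measured members, 229 had ratios below 0, and the median was -0.81 against 0.01 over all loci. Only 39 (15.5%, against 12.1% of all loci) were called lower and 1 higher, since most ratios were smaller than 2-fold; in the additive model 2 rose and 100 fell. AT3G02560, of the S7e family, went from 51 to 11 reads (4.43-fold lower) and AT2G18400, of the L6 family, from 53 to 17 (2.98-fold). The higher member, AT1G53560, of the L18ae family, had 6 and 56 reads. In the pair labelled arf10/16 the median was -0.49. Many of these genes are near copies of each other, which can share reads. Ribosome assembly genes leaned the same way without a call: none of 13 passed the rule of size or edgeR's quasi-likelihood test (0 rose, 0 fell), the median was -0.61, and NUC-L1, the nucleolin that opens ribosomal DNA, had 1837 and 1234 reads.

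Ribosomal protein promoters in plants often carry the site II element, and the 250 bases before the annotated gene start were therefore searched for TGGGCC or TGGGCT on both strands (RefSeq, TAIR10.1; 14689 of the measured loci had a promoter). The element stood in 21.6% of all promoters, in 61.0% of ribosomal (153 of 251), 45.5% of proteasome (15 of 33) and 39.1% of autophagy promoters (9 of 23). So 3 groups with a high share of the element moved in different directions with Al. Within the ribosomal group the median log2 ratio was -0.82 with and -0.70 without a match; within the proteasome group it was 0.64 and 0.66, and within the autophagy group 0.76 and 1.0. The telo-box AAACCCTA stood in 15.1% of ribosomal promoters (38 of 251) and in 3.47% of all. Of all loci called higher or lower, 13% and 14% held a site II match. The W-box core with a flanking base, TTGACC or TTGACT, stood in 35.6% of promoters of higher loci, 32.1% of lower loci and 29.8% of all, and CACGTG, the G-box core, in 8.11%, 6.41% and 7.17%. A match is a string in a window, not a shown site.

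Printed below are the promoters of 2 ribosomal protein genes, a proteasome ATPase and NBR1, whose Al ratios differ in sign. These promoters were chosen after the values were seen and because they hold a match, so that they share the element was fixed in advance. Each run reads 5′ to 3′ on the gene's strand, and capitals mark the site II matches. They lie at chr4:347294-347543 (AT4G00810, minus strand), chr5:4936430-4936679 (AT5G15200, minus), chr1:20068501-20068750 (RPT1A, minus) and chr4:12740782-12741031 (NBR1, plus) of TAIR10.1.
AT4G00810: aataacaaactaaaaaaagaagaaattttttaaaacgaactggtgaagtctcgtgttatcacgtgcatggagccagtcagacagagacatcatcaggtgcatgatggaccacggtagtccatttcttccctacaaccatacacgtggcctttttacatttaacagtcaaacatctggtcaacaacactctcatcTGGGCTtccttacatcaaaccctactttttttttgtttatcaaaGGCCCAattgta
AT5G15200: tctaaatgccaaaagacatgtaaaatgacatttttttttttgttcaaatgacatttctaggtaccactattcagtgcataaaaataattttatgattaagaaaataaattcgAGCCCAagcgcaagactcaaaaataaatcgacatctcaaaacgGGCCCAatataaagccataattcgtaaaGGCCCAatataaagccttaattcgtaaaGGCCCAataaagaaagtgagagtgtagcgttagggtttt
RPT1A: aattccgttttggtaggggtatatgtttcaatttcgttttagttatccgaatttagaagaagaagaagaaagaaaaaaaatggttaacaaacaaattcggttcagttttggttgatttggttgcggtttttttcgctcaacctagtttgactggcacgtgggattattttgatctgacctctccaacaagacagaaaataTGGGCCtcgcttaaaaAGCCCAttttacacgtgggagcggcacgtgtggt
NBR1: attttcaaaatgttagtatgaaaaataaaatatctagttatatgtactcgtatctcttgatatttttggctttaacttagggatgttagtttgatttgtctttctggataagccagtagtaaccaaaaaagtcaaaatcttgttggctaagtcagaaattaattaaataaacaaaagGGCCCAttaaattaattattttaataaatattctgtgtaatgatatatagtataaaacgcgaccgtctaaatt
AT4G00810 holds 2 matches, AT5G15200 holds 4, RPT1A 2 and NBR1 1. AT5G15200, of the S4 family, went from 431 to 176 reads (2.34-fold lower) and fell, and AT4G00810, a 60S acidic protein, went from 27 to 4 (6.44-fold lower) in wild type but had 12 and 12 in the pair labelled arf10/16 and did not pass the additive test. RPT1A and NBR1 were higher, as given above.

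**Figure D3:**
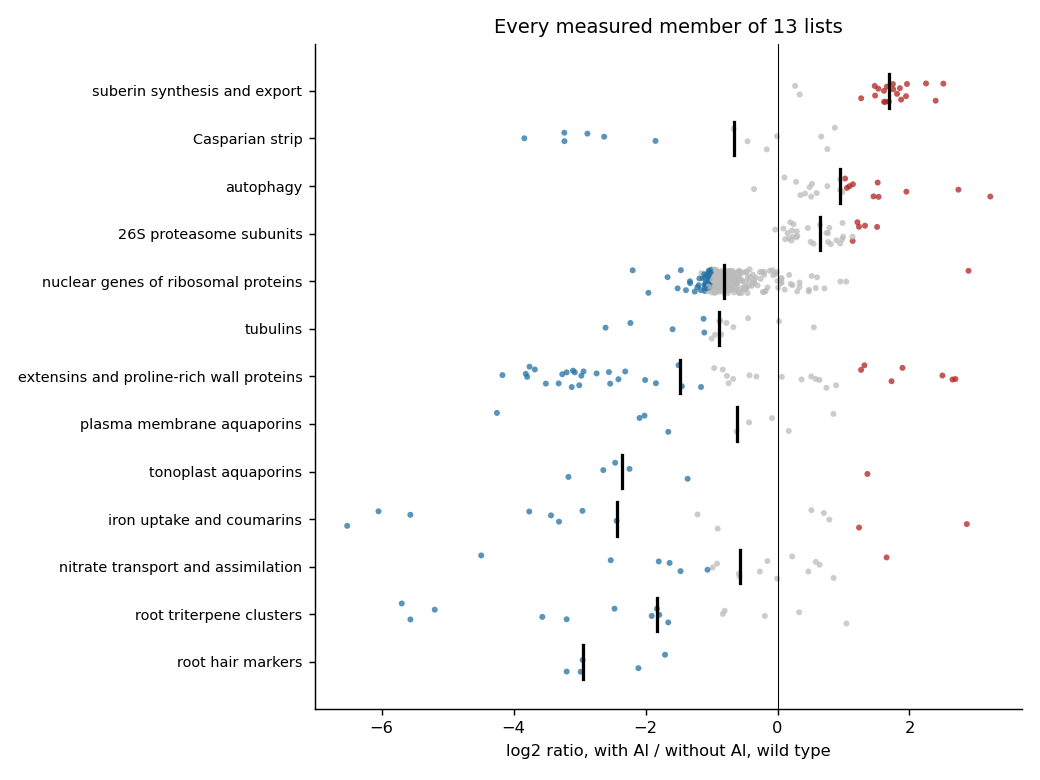
Log2 ratios of every measured member of 13 lists in wild type; red points were called higher, blue lower, grey neither, and black bars are medians. Ribosomal protein genes form a dense band below 0 (median -0.81), proteasome genes a band above 0 (0.64), and suberin genes stand above 0 throughout.

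Tubulin genes were lower in part, and DNA replication and histone genes were counted beside them. Over all loci 14.4% were higher and 12.1% lower. Of 15 measured tubulins, which build the microtubules that guide wall deposition, 5 were lower, none was higher and 7 fell. TUB5 went from 757 to 117 reads (6.18-fold lower) and TUB1 from 396 to 79 (4.79-fold), while TUB9 stood at 810 and 786. Of 9 genes for DNA replication licensing 1 was lower (CDT1A, 116 to 45 reads), at 11.1% near the share of all loci. The median was -0.18, and RNR1 had 228 and 206 reads. Of 34 histone genes 3 were higher and 1 lower.

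Wall proteins split, with more lower than higher members. Of 46 measured extensins and proline-rich wall proteins, 25 (54.3%) were lower and 7 (15.2%) higher, and the list's summed level was 73032 CPM without and 32829 CPM with Al. EXT12 went from 696 to 46 reads (14.4-fold lower), ELP from 1502 to 100 (14.3-fold) and AT4G08400 from 376 to 18 (19.9-fold). Root hair markers moved with these: their median was -2.95, and PRP3, a wall protein of hairs, went from 958 to 98 reads. The part of hairs in the extensin values was not tested. Of 38 arabinogalactan proteins, glycoproteins of the cell surface, 20 were lower and 8 higher: FLA13 went from 258 to 7 reads (35.2-fold lower) and AGP3 from 383 to 24 (15.2-fold), but AGP10 from 331 to 1397 (4.42-fold higher) and AGP12 from 114 to 475 (4.36-fold).

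Enzymes that loosen or stiffen the wall also went both ways. Of 23 xyloglucan endotransglucosylases 7 were higher and 10 lower, yet their summed level went from 1644 to 3189 CPM, mostly through XTH24 (81 to 3103 reads, 40.1-fold higher [32.2 to 50.7]). TCH4, a touch-induced member, went from 227 to 1340 reads, and XTH17, a member of the elongation zone, from 269 to 47. Of 43 pectin methylesterases and their inhibitors 8 were higher and 13 lower; AT3G10720 went from 1072 to 71 reads (14.4-fold lower) and AT5G62350 from 365 to 972 (2.79-fold higher). Of 16 expansins 2 were higher (EXLB1, 122 to 795 reads, and EXPA4, 261 to 569) and 7 lower, and their summed level went from 606 to 817 CPM. Of 38 loci annotated as pectin lyase-like, a name picked after the values were seen, 14 were lower and 2 higher.

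Water channel genes were lower in most of the members that were called. Of 9 plasma membrane aquaporins 4 were lower and none higher, and their summed level was 884 CPM without and 235 CPM with Al. PIP2;4 went from 239 to 10 reads (22.8-fold lower) and PIP2B from 1279 to 285 (4.28-fold). Of 6 measured tonoplast aquaporins 5 were lower and 1 higher, with summed levels of 4011 and 615 CPM. TIP2 was 6.24-fold lower [5.83 to 6.69] and GAMMA-TIP, the main channel of the vacuole in growing cells, was 9.05-fold lower (2625 to 277 reads). In the pair labelled arf10/16, TIP2 had 5266 and 929 reads. In the additive model over both pairs 4 plasma membrane and 5 tonoplast members fell.

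The endodermis, the inner sheath that controls entry into the stele, carries a lignin band, the Casparian strip, and suberin lamellae. Their genes moved in opposite directions. Of 13 measured Casparian strip genes 6 were lower and none higher, among them scaffold genes and the strip peroxidase. CASP1 went from 628 to 62 reads (9.67-fold lower [7.44 to 12.8]) and PER64, the peroxidase that polymerises strip lignin, from 367 to 55 (6.37-fold). CASP4 had 29 reads without and 0 with Al, at least 9.23-fold lower. The regulators did not share this: SHR (148 to 126 reads), SCR (196 to 136) and MYB36 (117 to 111), which switches on the CASP genes, were not called, and GSO1, the receptor that checks strip closure, had 250 and 379 reads and rose. The endodermis marker list, which is CASP1, SCR and MYB36, had 1 of 3 members lower. The 6 lower genes thus stood beside endodermal regulators whose ratios were less than 2-fold.

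Suberin genes had the largest share of higher members of all 82 lists. Of 21 measured members 19 (90.5%) were higher, none was lower and 19 rose, and the median was 1.69 in wild type as in the pair labelled arf10/16. Members came from each step. CYP86A1, which hydroxylates fatty acids for the polymer, went from 727 to 2196 reads (3.16-fold), the chain-elongating KCS2 from 379 to 1221 (3.37-fold), GPAT5, which joins the acids to glycerol, from 182 to 615 (3.54-fold) and its relative GPAT7 from 67 to 375 (5.86-fold [4.51 to 7.72]). AT5G22500, a fatty acid reductase for suberin alcohols, went from 41 to 215 reads and the exporter ABCG6 from 381 to 1423 (3.91-fold). The regulators MYB41 (21 to 79 reads), MYB93 (218 to 604) and MYB107 (30 to 92) were higher. The 2 members not called were FACT, an acyltransferase (236 to 285), and MYB92 (254 to 292). A W-box string stood in 11 of the 21 suberin promoters (52.4%, against 29.8% of all), the highest share of the lists searched. Other lists with many higher members lay below the share of all: senescence 26.3%, autophagy 21.7% and salicylic acid 15.4%.

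Secondary wall and lignin genes showed no common direction, with 5 of 24 higher and 6 lower. PAL4, which starts the phenylpropanoid pathway, went from 86 to 770 reads (9.38-fold) and AT1G80820, a cinnamoyl-CoA reductase, from 82 to 593. AT4G36220, ferulic acid 5-hydroxylase of syringyl lignin, went from 159 to 4 reads (37.9-fold lower [14.5 to 141]). The xylem cellulose synthase genes CESA4 (271 to 119 reads) and IRX3 (147 to 61) were lower, beside xylem markers whose median was -0.96. Of 15 laccases, which oxidise lignin precursors, 6 were higher and 2 lower: LAC5 went from 152 to 1461 reads, LAC13 from 70 to 312, and LAC3 from 448 to 125.

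**Figure D4:**
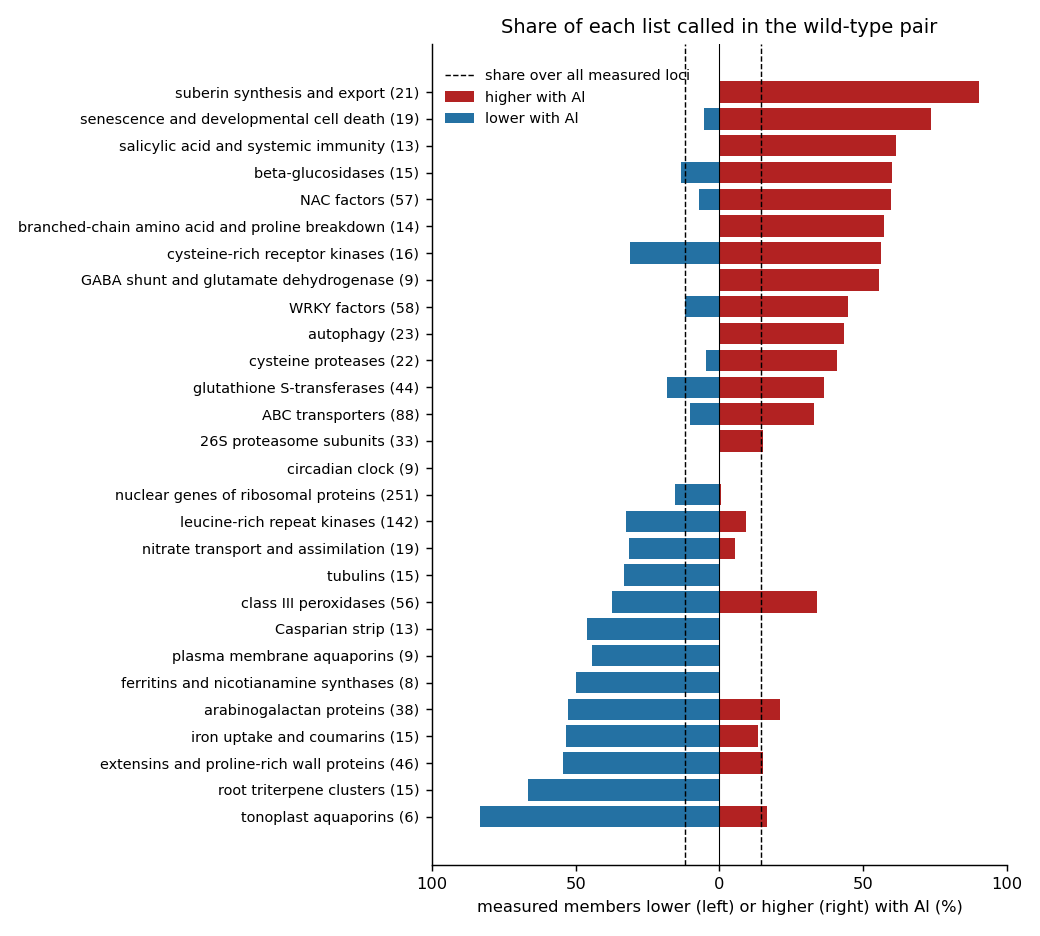
Share of the measured members of each list (number in brackets) called higher (red, right) or lower (blue, left) with Al in wild type; dashed lines mark the shares over all loci, 14.4% and 12.1%. Suberin genes reach 90.5% on the right and tonoplast aquaporins 83.3% on the left, while peroxidases and cysteine-rich receptor kinases extend to both sides.

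Nutrient genes moved by element. Iron reduction and uptake had the lowest median of the nutrient lists: of 15 measured iron uptake and coumarin genes 8 were lower and 2 higher, with a median of -2.44, and 9 fell. FRO5, a reductase, went from 1480 to 129 reads (11-fold lower), FRU, the bHLH factor that switches on uptake, from 539 to 36 (14.3-fold) and CYP82C4, of coumarin synthesis, from 165 to 14 (11.3-fold). Other iron transporters went the other way: NRAMP3, which exports iron from the vacuole, went from 38 to 278 reads (7.66-fold higher) and OPT3, of phloem iron, from 37 to 86. BTS, a ubiquitin ligase that senses iron, had 180 and 281 reads and rose without passing 2-fold. Ferritins, which store iron, were not higher: FER1 had 675 and 434 reads, and FER3 was lower (188 to 56, 3.20-fold). The metal chelator synthases NAS1 (77 to 5 reads) and NAS4 (54 to 6) were lower as well.

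Of 12 measured copper genes 3 were higher and 4 lower. CSD2, a copper/zinc superoxide dismutase, went from 34 to 196 reads (6.04-fold higher) and FSD1, the iron enzyme that replaces it when copper is short, from 331 to 16 (19.7-fold lower). Also higher were CSD1, another copper/zinc enzyme (3 to 25 reads), and MT2A, a metallothionein (59 to 166). The copper importers COPT2 (321 to 33 reads, 9.29-fold) and COPT1 (49 to 5) and the chaperone CCH (1679 to 399, 4.02-fold) were lower. All 3 higher genes rose, and FSD1, COPT2, COPT1 and CCH fell.

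Nitrate importers and a nitrate reductase moved in opposite directions. NRT2:1, the main high-affinity importer, went from 2236 to 93 reads (23.0-fold lower [18.6 to 28.6]) and NRT1.5, which loads nitrate into the xylem, from 2317 to 382 (5.79-fold). NIA1, a nitrate reductase, went from 1215 to 3652 reads (3.15-fold higher), whereas NIR1, the next enzyme, had 813 and 392 and fell. In the whole list 6 of 19 were lower and 1 higher. The ammonium importers AMT1;2 (711 to 119 reads, 5.70-fold) and AMT1;3 (511 to 70, 6.97-fold) were lower, and glutamine synthetase GLN1.3 had 432 and 767 reads and rose. For sulfate 3 of 20 genes were higher and 3 lower (15% each), near the 14.4% and 12.1% of all loci. SULTR1;1, a high-affinity importer, went from 163 reads to 1, while SULTR3;5, of transport to the shoot, went from 21 to 260 (13-fold higher) and APR1, which commits sulfate to reduction, had 389 and 273.

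Mitochondrial and low-oxygen genes moved in part. AOX1A, the alternative oxidase, went from 194 to 501 reads (2.71-fold higher) and BCS1, an outer membrane ATPase of the same stress response, from 298 to 967, but NDB1 (72 to 30) and DIC2 (709 to 328) were lower, and in all 3 of 13 were higher and 4 lower. Of 13 low-oxygen genes 4 were higher and 1 lower. AT4G33070, a pyruvate decarboxylase, went from 56 to 334 reads (6.25-fold) and ADH1, the next fermentation enzyme, from 41 to 119 (3.04-fold), while the hemoglobin gene HB1 was lower (51 to 23) and SUS4 was not called (148 to 169).

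Triterpene and terpene genes had more lower than higher members, and beta-glucosidases were mostly higher. Glucosinolate and camalexin genes were called at shares near those of all loci, 14.4% higher and 12.1% lower. Arabidopsis roots make triterpenes from genes that lie in clusters. Of 15 measured cluster genes 10 (66.7%) were lower and none higher, and their summed level was 1533 CPM without and 138 CPM with Al. AT4G15390, an acyltransferase, went from 2571 to 65 reads (37.8-fold lower [29.5 to 49.1]), BARS1, which makes baruol, from 200 to 2, CYP702A2 from 259 to 19 and CYP705A3 from 165 to 1. PEN1, another triterpene synthase, was not called (68 to 82). Of 17 terpene synthases 9 were lower and 1 higher; AT3G29410 had 79 reads without and 0 with Al, at least 25.1-fold lower. Of 9 flavonoid genes 4 were lower and 1 higher: TT7, a flavonoid hydroxylase, went from 224 to 53 reads (4.03-fold) and the regulator MYB12 from 107 to 43. Of 23 genes for indole glucosinolates and camalexin 3 were higher and 2 lower. PAD3, the last enzyme of camalexin synthesis, went from 50 to 150 reads, MYB51, a regulator of indole glucosinolates, from 182 to 437 and CYP79B3, at the pathway's entry, from 436 to 193. PYK10, the beta-glucosidase of endoplasmic reticulum bodies, was lower (5493 to 2472 reads, 2.12-fold), but of 15 other beta-glucosidases 9 were higher and 2 lower, led by BGLU25 (155 to 3983 reads, 26.9-fold) and BGLU24 (2 to 172).

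Large enzyme families had members on both sides. Of 56 class III peroxidases, which act on wall phenolics and peroxide, 19 (33.9%) were higher and 21 (37.5%) lower. AT4G36430 went from 50 to 1841 reads (38.6-fold higher), PRXCB from 172 to 3210 and PA2 from 3 to 277. PRX52 had 0 and 334 reads. On the other side AT5G64100 went from 2819 to 255 reads (10.6-fold lower), AT5G24070 from 154 to 5 and AT2G39040 from 75 to 0. Of 123 cytochromes P450 32 were higher and 26 lower, with CYP78A8 at 35 and 891 reads. Of 82 UDP-glycosyltransferases 18 were higher and 23 lower, with UGT71C1 at 800 and 38 reads (20.1-fold lower). Among 44 glutathione S-transferases 16 were called higher and 8 lower, and the summed level went from 4269 to 7618 CPM. GSTU8 went from 126 to 1740 reads (14.5-fold) and GSTU4 from 6 to 181, while GSTF14 went from 913 to 42 (20.8-fold lower).

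ABC and MATE transporters had more higher than lower members. Of 88 ABC transporters 29 (33.0%) were higher and 9 lower: ABCG16 went from 20 to 566 reads (29.6-fold), ABCC7, of vacuolar conjugate transport, from 61 to 587 and ABCB19, an auxin exporter, from 877 to 253 (3.31-fold lower). Of 32 MATE transporters 10 were higher and 3 lower, with AT3G21690 at 83 and 491 reads. Of 41 lipid transfer proteins 17 were higher and 12 lower; AT3G22600 went from 463 to 3667 reads (8.30-fold) and AT4G12520 from 635 to 33 (18.4-fold lower). Amino acid transporters showed no common direction, with 11 of 59 higher and 9 lower (median 0.02, which turns to -0.07 with total counts); AT5G16740 went from 2 to 296 reads.

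Transcription factor families differed in how far they moved. NAC factors, many of them tied to ageing and stress, led: of 57 measured 34 (59.6%) were higher and 4 lower, 37 rose and none fell. NAC019 had 0 and 161 reads, at least 56.2-fold higher, and AT3G15500, a NAC domain protein, 11 and 311 (29.6-fold). The root cap factor NAC070 was lower (43 to 9 reads). Of 58 WRKY factors, regulators of defence and starvation responses, 26 (44.8%) were higher and 7 lower. WRKY75 went from 2 to 241 reads (126-fold), WRKY31 from 9 to 176 (20.5-fold) and WRKY53 from 117 to 32 (3.49-fold lower). Of 80 MYB factors 28 were higher and 10 lower, and of 42 homeobox factors 15 and 6. HB-12 (1 to 211 reads) and HB-7 (12 to 151, 13.2-fold), both known from dehydration, were higher, and HB-3 was lower (194 to 21). Of 73 AP2/ERF factors 17 were higher and 13 lower, with DREB19 at 0 and 112 reads. Of 57 bHLH factors 5 were higher and 12 lower.

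Salicylic acid genes were higher beside this. Of 13 measured members of that list 8 (61.5%) were higher and none lower, with a median of 2.07. EDS16, which makes the precursor isochorismate, went from 5 to 54 reads (11.3-fold [4.56 to 36.2]), PBS3, which conjugates it, from 24 to 1281 (55.9-fold [37.4 to 87.6]) and FMO1, which makes the systemic signal N-hydroxypipecolic acid, from 35 to 303 (9.07-fold). WRKY70, a factor downstream of salicylic acid, went from 31 to 240 reads. NPR1, the receptor-linked regulator, was not called (196 to 213), and DMR6, which degrades salicylic acid, had 418 and 249 reads and fell. Receptor kinases went both ways: of 16 cysteine-rich receptor kinases 9 were higher and 5 lower, but of 142 leucine-rich repeat kinases 13 (9.15%) were higher and 46 (32.4%) lower. AT3G46400 had 68 and 0 reads, and CLV1, of stem cell signalling, 190 and 499. Basic chitinase HCHIB went from 308 to 2180 reads (7.41-fold) and ChiC from 391 to 2386.

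Protein folding genes were called in part, and clock genes were not called, where over all loci 14.4% were higher and 12.1% lower. Of 15 unfolded protein response genes 2 were higher and 3 lower: the transcription factors BZIP60 (157 to 564 reads, 3.76-fold) and BZIP28 (247 to 606) were higher and the chaperone CRT1b was lower (2334 to 857). Of 15 small heat shock proteins 5 were higher and none lower, whereas of 19 larger chaperones (HSP70 and HSP90) 3 were higher and 1 lower, with a median of -0.10; HSP70 went from 95 to 448 reads. None of 9 clock genes was called in either pair, and none passed edgeR's quasi-likelihood test (0 rose, 0 fell); TOC1 had 688 and 1051 reads and GI 912 and 974. Of 17 DHHC-type zinc finger proteins and 12 pseudouridine synthases, names taken after the values were seen, none was called. Further lists had members on both sides, some at shares near those of all loci. There were 5 higher and 9 lower of 32 GDSL lipases, and 8 and 7 of 41 aspartyl proteases. Calcium-dependent kinases and calmodulin-like proteins had 17 and 13 of 66, and oxygenases that use 2-oxoglutarate 15 and 12 of 53. Late embryogenesis abundant proteins had 6 and 7 of 23, and protein phosphatases of type 2C 4 and 4 of 38 (10.5% each).

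A scan of annotated product names, made after the values were seen, showed further families. The cysteine/histidine-rich C1 domain family, named for a fold that binds zinc and lipids in animal kinases, was mostly lower: of 96 measured loci 57 (59.4%) were lower and 1 higher, with a median of -1.50, and 56 fell and none rose. AT5G40590 went from 729 to 62 reads (11.2-fold lower), AT2G27660 from 450 to 90 (4.77-fold) and AT1G44030 from 57 to 1. The higher member was AT2G28270 (5 to 26 reads). The pair labelled arf10/16 gave 59 lower and 1 higher, with a median of -1.46. Of 12 CAP superfamily proteins, secreted proteins related to PR1, 9 were lower and none higher, AT5G57625 from 392 to 29 reads. Of 16 TRAF-like proteins 9 were lower and 2 higher, AT3G20360 from 84 to 2 reads and AT4G01390 from 96 to 414. Of 19 mannose-binding lectins 9 were lower and 1 higher, which was AT1G52130 (2 to 132 reads). Of 22 phloem protein 2 genes 11 were higher and 4 lower, PP2-B11 from 14 to 220 reads and PP2-A3 from 246 to 32. Dof factors had 6 of 15 higher and none lower.

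Neighbouring loci tended to be called alike. Among measured loci next to a higher locus on the chromosome 494 of 2371 (20.8%) were higher, against 14.4% of all, and among those next to a lower locus 394 of 1959 (20.1%) were lower, against 12.1%. Many neighbours are tandem copies that can share reads, so their calls are not independent. The longest runs, chosen by their calls and with unmeasured loci skipped, held 6 loci. A higher run from AT2G32090 through OFP16 to AT2G32210 held mostly unlike product names. GSTU5 (26 to 230 reads), GSTU4 (6 to 181), GSTU3 (0 to 15), GSTU2 (9 to 22), GSTU1 (47 to 131) and the small heat shock gene AT2G29500 (2 to 13) were all higher. A run of 6 lipid transfer genes from EARLI1 (35 to 7 reads) through AT4G12520 (635 to 33) to AIR1 (94 to 7) was lower. Cupins stood in runs of opposite sign: GLP6 (4 to 20 reads), AT5G39110 (7 to 51), AT5G39120 (1 to 378) and AT5G39130 (0 to 17) were higher, and nearby AT5G38930 (31 to 2) and AT5G38940 (2086 to 118) were lower. The lower run also held AT5G39000 and AT5G39020, named as receptor-like kinases. A run of 5 neighbouring loci named for DUF247 were lower together, and DIN2 stood at the end of a run of 4 higher loci with BGLU16 (4 to 28 reads) and BGLU27 (7 to 24).

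The difference of log2 ratios, wild type minus the pair labelled arf10/16, shows where the Al ratios of the pairs differed, whichever pair moved. It is a description from 4 libraries with a counting interval and no p-value. It was larger by at least 2-fold, with the interval excluding 0, for 733 loci (4.97%) and smaller for 513 (3.48%). The loci with a larger ratio had, without Al, a median of 22 reads in wild type against 55 in the other genotype, and with Al 62 against 57. These medians lay further apart without Al than with Al. They are raw reads, not scaled by library size, so the small gap with Al gives no order of the genotypes. Of the 733, 454 were higher in wild type, 121 were lower in the other pair, 138 were higher there too, and 161 were called in neither. CRK11, a cysteine-rich receptor kinase, had 32 and 542 reads in wild type and 453 and 702 in the other pair (difference 3.35 [2.81 to 3.89]). PLA2A, a lipid hydrolase of defence, had 27 and 380 against 247 and 465 (2.80 [2.20 to 3.40]). CYP706A2 had 43 and 275 against 639 and 574 (2.74 [2.25 to 3.23]), and BCB, a blue copper protein, 11 and 142 against 112 and 161 (3.03 [2.10 to 3.96]).

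Loci with a smaller ratio showed the reverse order of medians without Al (58 raw reads in wild type, 35 in the other pair). With Al their medians were 17 and 26 raw reads. Of these 513, 354 were lower in wild type. The neighbouring lectin genes AT1G52060 (1069 to 25 reads in wild type, 178 to 58 in the other pair, difference -3.86) and AT1G52070 (1185 to 56, 188 to 107, -3.66) were among the 8 with the largest near bound. AT5G46890, a lipid transfer protein, went from 347 to 6 reads in wild type and from 223 to 34 in the other pair (-3.13), AT5G60530, named for LEA proteins, from 1597 to 49 and from 625 to 93 (-2.35). AT3G06460, of fatty acid elongation, had 109 and 9 reads against 67 and 42 (-2.94). AT5G24570, of unknown function, was not called in wild type (19 to 13) and was higher in the other pair (4 to 36).

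Differences between the pairs were counted for each list, without a test. Over all loci 4.97% had a larger and 3.48% a smaller ratio in wild type. Of 46 extensins and proline-rich wall proteins 16 had smaller and 3 larger ratios in wild type, and of the 14 loci named proline-rich extensin-like 10 had smaller and 1 a larger one, with a wild-type median of -3.18 against -1.76 in the pair labelled arf10/16. AT1G23720, a member, had 12465 and 12698 reads in the untreated libraries, and 928 and 2891 with Al. Root hair markers differed alike, with medians of -2.95 and -1.55 and 3 of 5 markers with a smaller ratio, and their part in the extensin difference was not tested. Root cap markers had medians of -1.96 and -0.26. Smaller ratios in wild type were also counted for 3 of 8 ferritins and nicotianamine synthases, 2 of 6 tonoplast aquaporins, 5 of 17 terpene synthases and 4 of 15 triterpene cluster genes. Of 58 WRKY factors 14 had a larger and none a smaller ratio in wild type (median 0.84 against 0.35), of 44 glutathione S-transferases 11 and 3 (0.62 against 0.05), of 12 jasmonate ZIM proteins 5 and none (0.61 against -0.57) and of 23 genes for indole glucosinolates and camalexin 8 and none (0.08 against -0.63; the first median turns to -0.01 with total counts). TIFY10B, a jasmonate repressor, had 93 and 203 reads in wild type and 609 and 378 in the other pair, and MYB51 had 182 and 437 against 955 and 803. None of 21 suberin, 23 autophagy, 33 proteasome and 9 circadian clock genes differed by this rule. At the shares over all loci few genes would be called in lists of this size, so their absence says little.

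**Figure D5:**
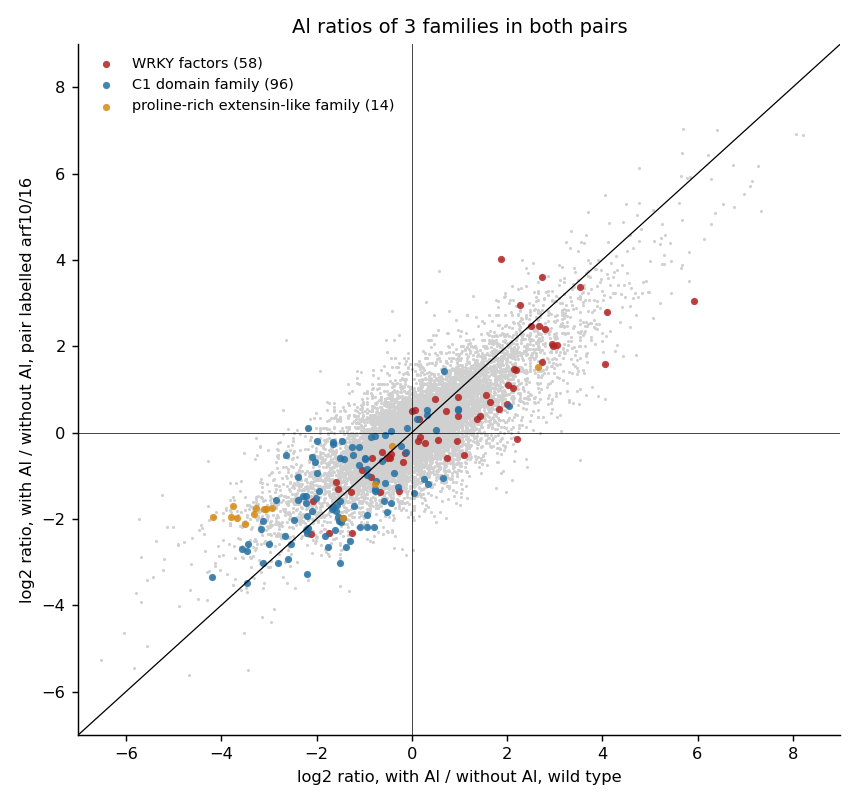
Log2 ratios with Al over without Al in wild type (horizontal) and in the pair labelled arf10/16 (vertical) for all measured loci (grey) and for 3 families; the diagonal marks equal ratios. WRKY factors lie mostly below the diagonal, proline-rich extensin-like loci above it at low wild-type ratios (median -3.18 against -1.76), and C1 domain loci around it (-1.50 against -1.46).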

How the data were processed

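RNA was taken from whole roots and sequenced as standard Illumina libraries, 1 per group, per the labels' protocols. The deposited table holds, per the file headers, a raw read count and an RPKM value for each transcript model in each library, both made by the authors. Not given in the sources used here are the genome build, aligner, counting tool and strand setting. Of 25092 models, 15308 cells listed as null were read as 0. The counts were summed to 22284 loci, of which 14739 passed edgeR's filterByExpr. RPKM, which the authors scaled by length and depth, served as an alternative scale (pseudocount 1).

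Library sizes were scaled with TMM (edgeR 4.0.16 under R 4.3.3). The wild-type pair has no replicate and hence no test. The intervals are exact Clopper-Pearson bounds on the split of a locus's reads between libraries, and those of the difference between pairs are normal intervals on 4 counts; both cover counting error only. The additive model of genotype label and Al treats the pairs as replicates of the Al effect; nothing says that they came from separate cultures beyond the label, and its p-values measure the spread between these libraries. A locus at 0 in a library was set against a floor of 3 reads. Product names, symbols and promoters came from RefSeq, TAIR10.1, which matched 99.3% of loci.

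The 82 gene lists and the comparisons were chosen with earlier results of these data known, so they support nothing independently, and no list was tested. Genes named in the text are the 10 largest gains and losses of CPM, the 10 largest ratios on each side by the near bound of the interval, the 8 largest differences between the pairs on each side, and of each list the 3 highest and 3 lowest with at least 50 reads and members that define its role. RPN1A, PRXCB, the promoters printed, the product name families (at least 12 measured loci) and the runs of neighbours were chosen after their values were seen. Alternatives were scaling, the filter, the prior count, RPKM, a higher fold, DESeq2 1.42.0 and limma 3.58.1. Some items are not reported here.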

Additional observations from a re-analysis of the deposited data

Results flagged for a closer look

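At 4 loci the wild-type pair moved one way with Al and the pair labelled arf10/16 the other way, each called by size; with 1 library per group the difference itself was not tested. AT1G17147, a VQ motif protein, had 5 and 25 reads in wild type and 84 and 28 in the other pair (difference of log2 ratios 3.70). AT5G56960, a bHLH factor, had 4 and 18 against 143 and 52 (3.41), and AT5G39580, a peroxidase, 12 and 26 against 153 and 55 (2.47). AT1G65570, a pectin lyase-like protein, went the other way, with 57 and 7 against 2 and 14 (-5.56).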

How the results depend on the processing

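Each group is a single library, so there were no replicates to pair, and the additive model itself holds the genotype label as a term. With 1 library per group, none could be left out of the wild-type comparison. Against 2122 higher and 1782 lower loci, a minimum of 50 reads over the wild-type pair gave 1537 and 1117, and a ratio of at least 4-fold gave 790 and 653. The counts of higher and of lower loci stayed within 1.5 times of these with total counts (1914 and 2059), DESeq2 size factors (2113 and 1785), upper quartiles (1917 and 2054), no filter (2198 and 1885), a prior count of 0.5 (2174 and 1848), RPKM (1933 and 2067) and, added after seeing the data, library sizes over all loci (2123 and 1781). Differences between the pairs of at least 4-fold numbered 183 larger and 162 smaller, against 733 and 513. In the additive model DESeq2's Wald test called 1053 that rose and 696 that fell, against 2278 and 1924 with edgeR; total counts gave 2037 and 2275 and limma on RPKM 1857 and 1999. Total counts moved the median ratio of all loci from 0.01 to -0.09. Of 476 named genes, changes of sign were counted only for those called higher or lower in wild type. A call needs at least 2-fold, and total counts shift a wild-type log2 ratio by only -0.099, so few changes of sign were possible. None of these called genes changed sign under these settings. The medians of 8 lists did: with total counts, alternative respiration went from 0.0625 to -0.0358, indole glucosinolates from 0.084 to -0.0147, cytochromes P450 from 0.0446 to -0.0515, amino acid transporters from 0.0247 to -0.0723, subtilases from 0.0455 to -0.0278 and late embryogenesis abundant proteins from 0.0831 to -0.0146. With RPKM these 6 were -0.0349, -0.0138, -0.0488, -0.0704, -0.0235 and -0.0139. With no filter amino acid transporters stood at -0.0267, major latex proteins went from 0.196 to -0.399 and phloem markers from 0.437 to -0.0486. The cause of these shifts was not tested. Depth limits low loci: a locus with fewer than 50 reads over the pair has a wide interval.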
